A study of Mus musculus with 12 samples.

Results

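The 10 genes Bpifa2, Smr3a, Amy1, Chia1, Cst10, Dcpp1, Dcpp2, Dcpp3, Klk1 and Crisp1 encode proteins known from salivary glands, and they were taken by symbol from a table of 11736 protein-coding genes measured in mouse lacrimal gland. They were chosen by their FPKM in this table, being abundant in libraries 1 and 2 of the ESS group, and low or at 0 in ESS library 3 and the 9 libraries of the other groups. The levels that follow therefore describe that choice and carry no test. The members' values were between 80.8 and 6915 FPKM in ESS libraries 1 and 2, against 0 to 17.0 FPKM in the other 10 libraries. FPKM is a read density per kilobase of transcript, scaled to the size of the library.

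Saliva and tears come from related exocrine glands, in which acinar cells pack proteins into granules and release them into ducts. In the mouse, the parotid gland is the serous gland known for amylase and parotid secretory protein, the submandibular gland for kallikreins and growth factors of its granular ducts, and the sublingual gland for mucins and for demilune cells, the serous caps on its mucous acini. The lacrimal gland makes the watery part of tears and is known for secretoglobins, odorant-binding proteins, lysozyme and lactoferrin.

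RNA of the whole lacrimal gland was sequenced in 4 groups of 3 libraries each, which were ESS mice, NOD mice at 8 weeks, NOD mice at 12 weeks and control mice. NOD (non-obese diabetic) is an inbred strain that spontaneously develops autoimmune inflammation, also of the tear and salivary glands. The series description names a Sjögren's syndrome model raised with a lacrimal autoantigen, written LGSS there and taken here as the ESS group of the sample labels. No sex is given in the sources used here, nor a strain or age for ESS and control mice, so these cannot be told apart from the group, and the libraries are not said to come from separate animals, so a p-value here measures only the spread between libraries. In a whole gland, fewer cells of a type and less RNA per cell cannot be told apart.

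The lacrimal label was checked against 12 lacrimal secretion genes, all of which had values. They summed to 101835 and 114210 FPKM in ESS libraries 1 and 2, against 98934 to 149151 FPKM in the other 10 libraries, and Obp1a, an odorant-binding protein, had 50664 and 55561 FPKM in ESS libraries 1 and 2, against 53954 to 73242 FPKM in the other 10, with ESS library 1 below all of them. The 7 acinar genes that tear and salivary glands share, among them the water channel Aqp5, summed to 579.6 and 652.6 FPKM in ESS libraries 1 and 2, against 543.7 to 681.1 FPKM in the other 10. Both list sums in ESS libraries 1 and 2 thus lay inside the range of the rest, with 1 of the other 10 lacrimal sums below that of ESS library 1. The lacrimal sum rests mostly on Obp1a, Scgb2b24 and Scgb2b20, so it says little about the other genes listed. The secretoglobin Scgb1b27 had 120 and 50.5 FPKM in ESS libraries 1 and 2, against at most 22.2 FPKM in the other 10. Scgb2b27 had 68.4 and 31.2 FPKM, against at most 14.5 FPKM. The table gives no counts, but low values of single-transcript genes fell on regular steps, with 26.4% to 39.7% of values between 0.5 and 5.5 steps lying within 0.05 of a whole step, where an even spread gives 10%. By the size of that step, library depth ran from 0.784 times the mean in NOD 8 weeks library 2 to 1.13 times the mean in NOD 12 weeks library 2, and it was 0.919 and 0.946 times the mean in ESS libraries 1 and 2. Whether 1 step is a read or a fragment is not known, so no counting interval is given.

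Bpifa2, or parotid secretory protein, is a member of the BPI fold family that binds bacterial surface lipids, and it was the most abundant of the 10. It had 6915, 4790 and 12.2 FPKM in the ESS libraries, 0.462, 7.20 and 2.91 FPKM in NOD at 8 weeks, 0.207, 0 and 0 FPKM in NOD at 12 weeks, and 12.9, 1.08 and 0.269 FPKM in control. ESS libraries 1 and 2 stood far above all others, and ESS library 3 sat at the level of control library 1. NOD at 12 weeks held the lowest values, at 0 to 2.41 steps of the depth scale above. Bpifa2 (ENSMUSG00000042459.8) lies on the plus strand of chromosome 2 of GRCm38 at 154008265 to 154016079. In the deposited transcript table, Bpifa2-201 had 13811 and 9610 FPKM in ESS libraries 1 and 2, and Bpifa2-204 had 366 and 206 FPKM. The transcripts summed to 2.05 times the gene value in ESS library 1, so gene and transcript values are not on 1 scale.

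Smr3a belongs to the submaxillary gland androgen-regulated protein family of small secreted proteins, and it was the next most abundant member. It had 3937, 2826 and 17.0 FPKM in the ESS libraries, 0.663, 10.6 and 4.07 FPKM in NOD at 8 weeks, 0.217, 0 and 0 FPKM in NOD at 12 weeks, and 16.4, 0.811 and 0 FPKM in control. Every library with Smr3a above 0 also had Bpifa2 above 0, while control library 3 had Bpifa2 alone. Smr3a (ENSMUSG00000029280.13) lies on the plus strand of chromosome 5 at 88002549 to 88008534, and Gm28434, a listed protein-coding gene, overlaps it on the same strand. Reads in the overlap could have been given to either gene. The 2 transcripts of Smr3a start 4 bases apart, and Smr3a-202 held 0.700% of the gene's transcript FPKM in ESS library 1 and 8.68% in ESS library 2.

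**Figure D1:**
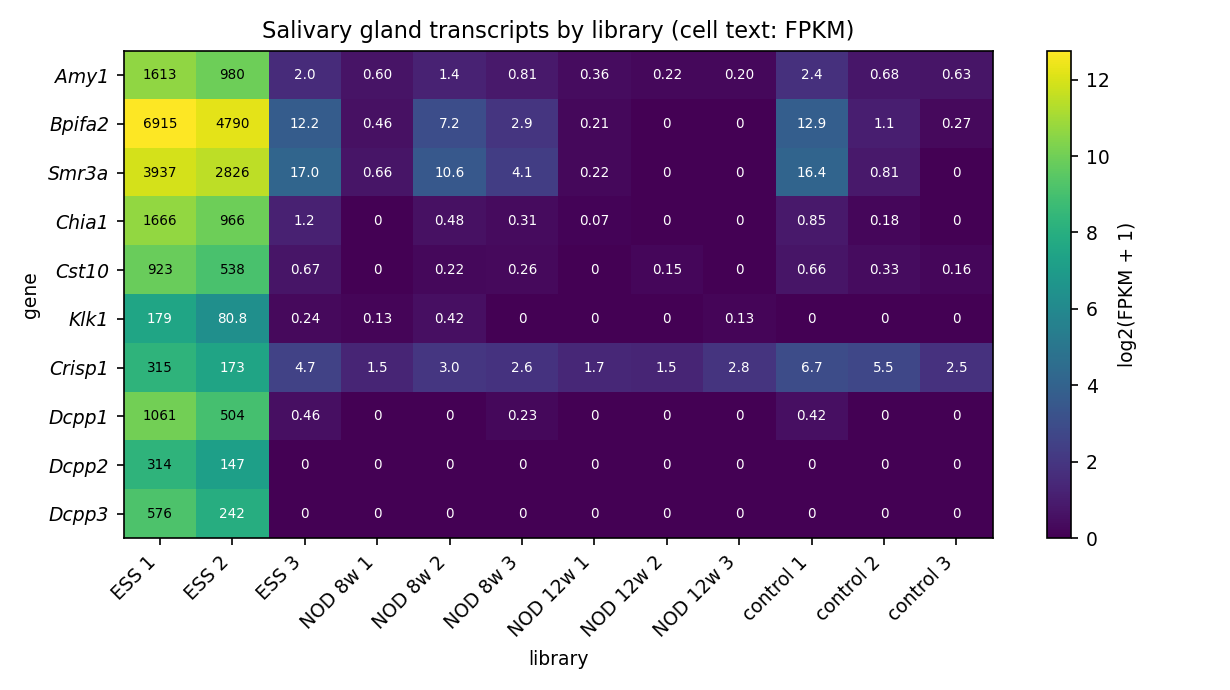
Heat map of the 10 genes (down the page) in the 12 libraries, with ESS, NOD 8 weeks, NOD 12 weeks and control from left to right. Colour gives log2(FPKM + 1) and the text in each cell the FPKM. ESS libraries 1 and 2 lie between 80.8 and 6915 FPKM, and the other 10 libraries at or below 17.0 FPKM.

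Amy1 encodes salivary amylase, which cuts starch. It had 1613, 980 and 2.02 FPKM in the ESS libraries, 0.605, 1.36 and 0.813 FPKM in NOD at 8 weeks, 0.363, 0.221 and 0.197 FPKM in NOD at 12 weeks, and 2.43, 0.683 and 0.627 FPKM in control. It was above 0 in all 12 libraries, at 4.98 to 54.4 steps of the depth scale above outside ESS libraries 1 and 2. Amy1 (ENSMUSG00000074264.12) lies on the minus strand of chromosome 3 at 113555710 to 113606699, where its annotated span overlaps Rnpc3 on the same strand. Mouse Amy1 is known to be transcribed from more than 1 promoter, and the table lists transcripts with separate first exons. The first base of Amy1-201 is at 113577830 and that of Amy1-202 at 113574762, 3068 bases downstream.

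Amy1-202, from the downstream start, was the larger transcript in both libraries with abundant Amy1, with 2114 and 1127 FPKM in ESS libraries 1 and 2 and 69.2% and 61.5% of the gene's transcript FPKM. Amy1-201, from the upstream start, had 885 and 687 FPKM, or 29.0% and 37.5%. In the other 10 libraries Amy1-202 was above 0 in 2, with 0.899 FPKM in NOD 8 weeks library 2 beside 1.55 FPKM of Amy1-201, and 0.0431 FPKM in NOD 12 weeks library 1 beside 0.396 FPKM of Amy1-201. It was listed at 0 in ESS library 3 and control library 1, the other libraries with the most Amy1. Transcripts that share most exons are split by estimation, so shares at such low values are uncertain.

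The 100 bases before each of the RefSeq starts of Amy1 (GRCm38.p6, minus strand) are shown because the libraries differed in which start carried the transcript. Capitals mark TATAA or its reverse complement TTATA. The downstream window, chr3:113574763-113574862, holds both as overlapping letters, and the upstream window, chr3:113577751-113577850, holds neither. The first base of Amy1-201 in the files falls inside the upstream window, so the annotations differ in where that transcript begins.
Amy1 downstream: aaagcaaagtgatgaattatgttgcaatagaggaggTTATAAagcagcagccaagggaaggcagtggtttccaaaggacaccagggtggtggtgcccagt
Amy1 upstream: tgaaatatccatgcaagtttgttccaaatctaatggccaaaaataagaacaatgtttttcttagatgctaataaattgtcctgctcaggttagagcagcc

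**Figure D2:**
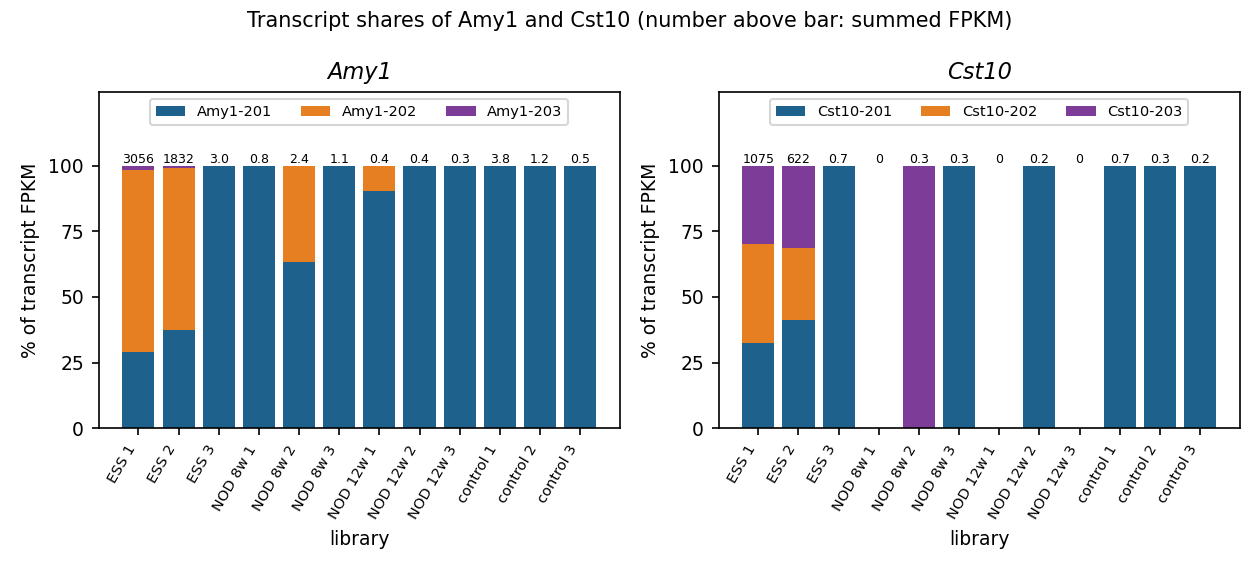
Share in percent of the transcript FPKM of Amy1 (left) and Cst10 (right) held by each transcript in each library, with the summed FPKM above each bar. Amy1-202 holds 69.2% and 61.5% in ESS libraries 1 and 2 and is absent from most other bars, which rest on low sums.

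Chia1 encodes acidic mammalian chitinase, which cuts the chitin of insects and fungi. It had 1666 and 966 FPKM in ESS libraries 1 and 2, against 1.22 FPKM in ESS library 3, at most 0.480 FPKM in NOD at either age and 0.850, 0.180 and 0 FPKM in control. Cst10, a member of the cystatin family of cysteine protease inhibitors, had 923 and 538 FPKM in ESS libraries 1 and 2, against 0.670 FPKM in ESS library 3 and at most 0.664 FPKM elsewhere. The transcripts Cst10-201, Cst10-202 and Cst10-203 had 347, 405 and 323 FPKM in ESS library 1 and 257, 171 and 194 FPKM in ESS library 2, so the one with the highest value differed between the libraries. In the other 10 libraries Chia1 lay between 0 and 16.4 steps and Cst10 between 0 and 3.98 steps of the depth scale above. Chia1 (ENSMUSG00000062778.12) lies on the plus strand of chromosome 3 at 106113229 to 106132120, and Cst10 (ENSMUSG00000033156.9) on the plus strand of chromosome 2 at 149405057 to 149410293.

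Klk1 encodes tissue kallikrein, a serine protease that releases kinins. It had 179 and 80.8 FPKM in ESS libraries 1 and 2, against 0.240 FPKM in ESS library 3, at most 0.424 FPKM in NOD at 8 weeks, at most 0.126 FPKM in NOD at 12 weeks, and 0 FPKM in the 3 control libraries. Klk1 (ENSMUSG00000063903.5) lies on the plus strand of chromosome 7 at 44225360 to 44229618, with the pseudogene Gm10109 on the opposite strand. Its closest relative by transcript sequence was Klk1b5, at 94.4% identity.

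Crisp1, a cysteine-rich secretory protein best known from the epididymis and from sperm, was the member with the highest level outside ESS libraries 1 and 2 in relation to its level in them. It had 315, 173 and 4.71 FPKM in the ESS libraries, 1.52, 3.03 and 2.62 FPKM in NOD at 8 weeks, 1.70, 1.47 and 2.78 FPKM in NOD at 12 weeks, and 6.73, 5.50 and 2.55 FPKM in control. It was above 1 FPKM in all 12 libraries, and the NOD and control groups overlapped. Crisp1 (ENSMUSG00000025431.4) lies on the minus strand of chromosome 17 at 40293758 to 40319207.

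Dcpp1, Dcpp2 and Dcpp3 encode demilune cell and parotid proteins, small secreted proteins of neighbouring genes. Dcpp1 had 1061 and 504 FPKM in ESS libraries 1 and 2, against 0.456 FPKM in ESS library 3, 0.230 FPKM in NOD 8 weeks library 3, 0.416 FPKM in control library 1 and 0 in the other 7. Dcpp2 had 314 and 147 FPKM and Dcpp3 had 576 and 242 FPKM in ESS libraries 1 and 2, and both were listed at 0 in the other 10. All of the trace of the cluster outside ESS libraries 1 and 2 was thus given to Dcpp1, at about 2.00 steps, 0.997 steps and 1.83 steps in those 3 libraries. The genes lie on the plus strand of chromosome 17, Dcpp1 (ENSMUSG00000096445.1) at 23880876 to 23882853, Dcpp2 (ENSMUSG00000096278.7) at 23880880 to 23900787, and Dcpp3 (ENSMUSG00000057417.6) at 23917458 to 23919441.

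The split of reads among the Dcpp genes is uncertain, as the transcripts are much alike and the placement of reads was not examined. Transcript identity, with gaps left out, was 94.2% between Dcpp1 and Dcpp2, 94.4% between Dcpp1 and Dcpp3 and 96.1% between Dcpp2 and Dcpp3. Dcpp2-202 also begins at Dcpp1 and had 113 and 42.7 FPKM in ESS libraries 1 and 2, beside 220 and 113 FPKM of Dcpp2-201. The first 60 coding bases are shown because they carry few letters by which a read could be placed, with the 2 positions that differ in capitals.
Dcpp1: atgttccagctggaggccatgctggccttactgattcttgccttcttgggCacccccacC
Dcpp2: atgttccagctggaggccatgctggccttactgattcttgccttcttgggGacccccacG
Dcpp3: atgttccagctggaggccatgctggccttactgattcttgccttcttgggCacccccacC

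The 100 bases before the RefSeq starts of the Dcpp genes (GRCm38.p6, plus strand) were alike as well. With gaps left out, identity was 97.9% between Dcpp1 and either of the others, and 98 of 98 aligned bases were identical between Dcpp2 and Dcpp3. The windows of Dcpp2 and Dcpp3 still differ, as a run of g after TATAA is shorter in Dcpp3. The windows are shown because the 3 genes were high in the same libraries, at chr17:23880776-23880875 for Dcpp1, chr17:23898622-23898721 for Dcpp2 and chr17:23917358-23917457 for Dcpp3. That of Bpifa2, chr2:154008176-154008275 on the plus strand, is set below them as that of the most abundant member. Capitals mark TATAA.
Dcpp1: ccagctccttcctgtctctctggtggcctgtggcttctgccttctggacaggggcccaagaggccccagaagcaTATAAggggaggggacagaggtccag
Dcpp2: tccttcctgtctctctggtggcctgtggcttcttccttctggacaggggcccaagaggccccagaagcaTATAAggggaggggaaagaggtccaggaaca
Dcpp3: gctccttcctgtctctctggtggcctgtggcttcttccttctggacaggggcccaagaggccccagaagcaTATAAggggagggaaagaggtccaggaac
Bpifa2: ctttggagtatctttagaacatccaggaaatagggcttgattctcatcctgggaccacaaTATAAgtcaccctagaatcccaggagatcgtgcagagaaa

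The letters TATAA were searched on both strands in the last 50 bases before the RefSeq start. They were found in 7 of the 10 members, with the first base at -43 to -12 from that start. Over all genes with a promoter window the letters were found in 2026 of 27025, or 7.50%. The 7 include Dcpp1, Dcpp2 and Dcpp3, whose windows are nearly identical, so the 7 are not separate cases. Amy1, Cst10 and Klk1 did not have the letters there, and in the downstream window of Amy1 the first base of the match is at -63. RefSeq starts are not always those of the transcripts measured. Chia1-201 begins at 106113229, ahead of the Chia1 window at 106113282 to 106113381. Smr3a has its RefSeq start at 88002525, and its transcripts begin at 88002549 and 88002553. Bpifa2 has its RefSeq start at 154008276, and Bpifa2-201 begins at 154008265. Positions for these genes hold for the RefSeq start alone. The match describes letters in these windows and says nothing about what binds there.

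Together the 10 members held 2.80% of the listed FPKM in ESS library 1 and 1.71% in ESS library 2, against 0.000236% to 0.00609% in the other 10. The lower of ESS libraries 1 and 2 was 25.8 times the highest of the other 10 libraries for Crisp1 and 1105 times for Dcpp1, with the other members that had any value elsewhere between these. ESS library 1 was above ESS library 2 for all 10 genes. The ratio of ESS library 1 to ESS library 2 was 1.39 for Smr3a and 1.44 for Bpifa2, 1.65 to 1.82 for Amy1, Chia1, Cst10 and Crisp1, and 2.10 to 2.38 for Dcpp1, Dcpp2, Klk1 and Dcpp3. Their median was 1.77, while the 4880 other genes with at least 5 FPKM in both libraries had a median of 1.04 and a 5th to 95th percentile range of 0.813 to 1.39. Of those 4880, 242 (4.96%) had a ratio at or above the lowest of the members. The most abundant members thus had the smallest ratios, and the members did not differ between the libraries by 1 common factor.

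**Figure D3:**
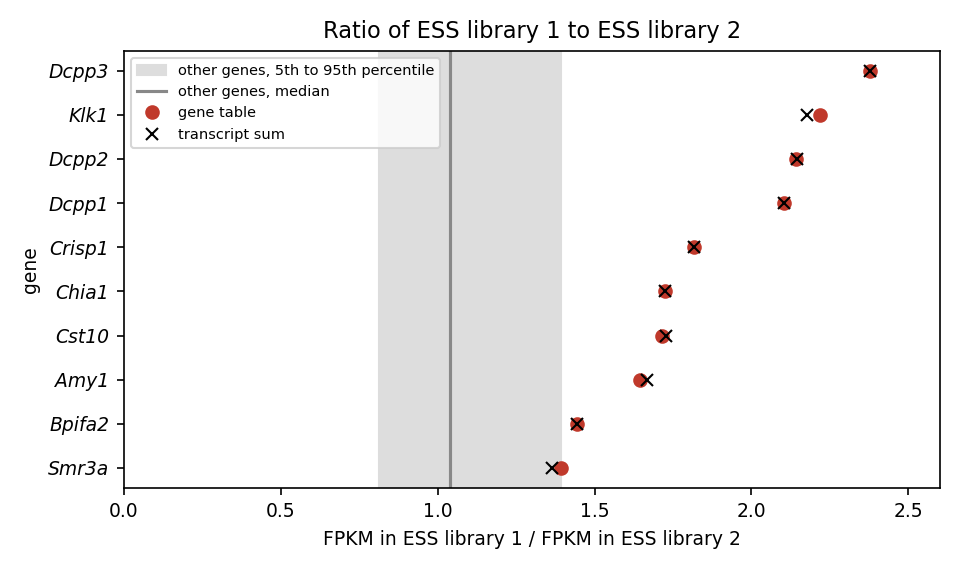
Ratio of FPKM in ESS library 1 to ESS library 2 on a linear axis for each of the 10 members, from the gene table (circles) and from summed transcripts (crosses), beside the median (line) and the 5th to 95th percentile (band) of the 4880 other genes. The circles lie between 1.39 and 2.38, at or beyond the upper edge of the band.

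The proportions between members also differed between the ESS libraries with abundant transcripts and the libraries with traces. The ratio of Smr3a to Bpifa2 was 0.569 and 0.590 in ESS libraries 1 and 2, against 1.40 in ESS library 3, 1.47 and 1.40 in NOD 8 weeks libraries 2 and 3, and 1.27 in control library 1, the 4 other libraries with the most Bpifa2. Summed transcript values gave 0.280 and 0.296 in ESS libraries 1 and 2, against 0.653 to 0.759 in those 4. Chia1 ran the other way, with a ratio to Bpifa2 of 0.241 and 0.202 in ESS libraries 1 and 2, against 0.0660 to 0.108 in the 4. For Cst10 the ratio was 0.133 and 0.112 against 0.0306 to 0.0876. For Amy1 it was 0.233 and 0.205 against 0.166 to 0.279, so the ranges overlapped. Bpifa2 rested on 40.1 to 183 steps and Smr3a on 18.3 to 77.3 steps in the 4, while Chia1 rested on 4.22 to 16.4 steps and Cst10 on 1.01 to 3.98 steps.

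**Figure D4:**
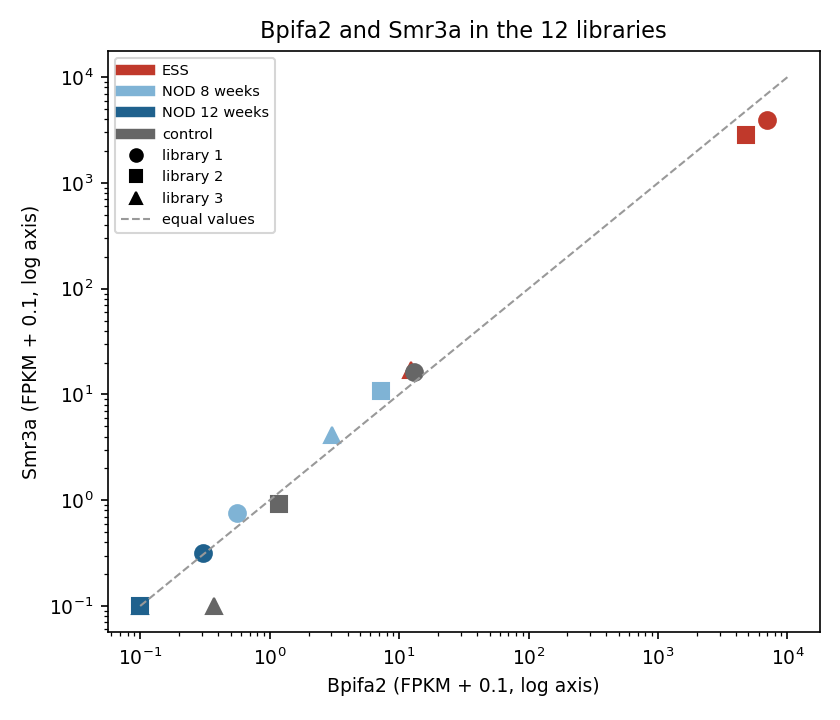
Smr3a against Bpifa2 as FPKM + 0.1 on log axes for the 12 libraries, with colour for the group, shape for the library number and a dashed line of equal values. ESS libraries 1 and 2 have ratios of 0.569 and 0.590, and the 4 next libraries have ratios of 1.27 to 1.47.

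In 6 of the 10 members the mean was under 0.5 FPKM in every group but ESS, as in 115 of all 11736 genes. A gene is listed where at least 1 group mean reaches 0.5 FPKM, so these genes are listed through ESS alone. Of the 10 members, 5 passed the filter of at least 1 FPKM in at least 3 libraries. Amy1 and Chia1 passed it through ESS libraries, with 2 and 0 libraries at 1 FPKM outside ESS, so their NOD and control values are given as levels with no test. Bpifa2, Crisp1 and Smr3a reached 1 FPKM in 4, 9 and 3 libraries outside ESS and were compared between NOD and control glands. The choice of members did not use differences between these groups. The shared spread of the fit, however, includes the gap within ESS by which they were chosen. Without ESS libraries 1 and 2 the SE at 8 weeks against control went from 1.87 to 0.817 for Bpifa2. It went from 1.09 to 0.292 for Crisp1 and from 1.71 to 0.955 for Smr3a. A lack of calls in the full fit therefore says little about these 3 genes. None of these 3 passed the limma test at an adjusted p of 0.05 in NOD at 8 weeks against control, where 27.4% of 10325 genes did. None passed in NOD at 12 weeks against control, with 33.4% of genes called, or in NOD at 12 weeks against 8 weeks, with 0.126% called. None had an unadjusted p under 0.05 in these comparisons, where 39.2%, 43.9% and 9.05% of all genes did, in the same order. The median log2 difference of all genes tested was -0.15 at 8 weeks and -0.18 at 12 weeks against control. The scaling sets how calls divide, with 19.4% of the calls at 8 weeks and 16.6% at 12 weeks higher in NOD. These shares were 52.4% and 51.3% with library medians centred, and 47.4% and 49.3% after quantile normalization. They were 5.81% and 5.05% after rescaling each library to its total FPKM without salivary genes. There the median of all genes was -0.36 and -0.40. That rescaling also sets the totals of the remaining genes equal. All listed genes summed to 620903 to 667408 FPKM in control, 709988 to 813763 in NOD at 8 weeks and 721934 to 807698 at 12 weeks. The genes left out include Mucl2, at 39809 to 68667 FPKM over the 12 libraries. Which of these steps moved the shares was not tested.

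Crisp1 had 2.39 ± 0.784 FPKM in NOD at 8 weeks, 1.98 ± 0.699 FPKM in NOD at 12 weeks and 4.93 ± 2.15 FPKM in control (SD, n = 3 each). Its log2 difference from control was -0.76 at 8 weeks (SE 1.09, limma adjusted p = 0.641) and -0.94 at 12 weeks (SE 1.09, limma adjusted p = 0.533). The shared spread of the fit included the ESS group, in which library 3 differed from the others. Without ESS libraries 1 and 2 the SE of Crisp1 was 0.292, and the limma adjusted p at 12 weeks against control was 0.0344. It was 0.0521 with the compared groups alone and 0.0424 without ESS library 3. The call therefore depends on which ESS libraries enter the fit.

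Bpifa2 had 3.53 ± 3.41 FPKM in NOD at 8 weeks, 0.0691 ± 0.120 FPKM in NOD at 12 weeks and 4.74 ± 7.05 FPKM in control (SD, n = 3 each). At 12 weeks its log2 difference was -1.76 from NOD at 8 weeks and -1.64 from control (SE 1.87 in both, limma adjusted p = 0.856 and 0.527). The highest NOD 12 weeks value of Bpifa2 was 0.207 FPKM in library 1, against 0.269 FPKM in control library 3. These values rest on 2.41 and 3.16 steps, too few to set the groups apart. Without ESS libraries 1 and 2 the limma adjusted p of Bpifa2 at 12 weeks against control was 0.155. Smr3a had 5.10 ± 5.03 FPKM in NOD at 8 weeks, 0.0724 ± 0.125 FPKM in NOD at 12 weeks and 5.73 ± 9.23 FPKM in control, with SDs close to or above the means.

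Other salivary gland genes were taken from lists of parotid serous, submandibular granular duct, and mucous and demilune genes. Of these 34 genes, 10 had values and 7 were tested. Prb1 and Prpmp5, proline-rich proteins of saliva, followed the members, with 35.5 and 16.6 FPKM for Prb1 and 69.7 and 28.8 FPKM for Prpmp5 in ESS libraries 1 and 2, and 0 in the other 10. Prol1, a proline-rich secreted protein, had 5.20 and 3.35 FPKM there and 0 in the other 10. Being above 0 in ESS libraries 1 and 2 alone, Prb1, Prpmp5 and Prol1 missed the filter and were not tested. The parotid serous genes Car6, a secreted carbonic anhydrase, Dnase1, Lpo, which is lactoperoxidase, and Pip, the prolactin-induced protein, were abundant in all 12 libraries, and the list summed to 8625 and 8823 FPKM in ESS libraries 1 and 2, against 6739 to 9224 FPKM in the other 10. Car6 alone had 1653 and 1600 FPKM in ESS libraries 1 and 2, above the 1010 to 1464 FPKM of the other 10. Dnase1, Lpo and Pip lay inside the range of the other 10, so not every gene of the parotid list stood out.

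In the granular duct list 2 of 18 genes had values, Egf and Klk1b11, and they summed to 21.5 and 20.0 FPKM in ESS libraries 1 and 2, against 15.6 to 21.9 FPKM in the other 10. In the mucous and demilune list Mucl2, a mucin-like secreted protein, had 45989 and 60045 FPKM in ESS libraries 1 and 2, against 39809 to 68667 FPKM in the other 10. In ESS against control glands 0 of the 7 tested genes passed the limma test, where 0.165% of genes did. Of the 7, 3 had an unadjusted p under 0.05, as did 12.1% of all genes. The 7 leave out Prb1, Prpmp5 and Prol1, so these counts do not cover the listed genes that followed the members. In NOD at 8 weeks 1 of 7 rose, where 5.3% of genes rose, and at 12 weeks 2 of 7 rose, where 5.52% did. Lpo had 1880 ± 353 FPKM in NOD at 8 weeks, 1937 ± 73.7 FPKM in NOD at 12 weeks and 1315 ± 279 FPKM in control (SD, n = 3 each), and it rose at both ages (log2 difference 0.52 and 0.58, limma adjusted p = 0.0258 and 0.0132). Klk1b11, a kallikrein-family protease, rose at 12 weeks, with 10.8 ± 0.429 FPKM in NOD against 8.02 ± 0.856 FPKM in control (limma adjusted p = 0.0219). Neither call held when each library was rescaled to its total FPKM without the members and these lists, which also sets those totals equal. The limma adjusted p was then 0.219 and 0.131 for Lpo at 8 and 12 weeks and 0.367 for Klk1b11. Lpo at 8 weeks was also lost with the compared groups alone (limma adjusted p = 0.0914) and without control libraries 2 or 3 or NOD 8 weeks libraries 1 or 2 (0.0666 to 0.0943), and after quantile normalization (0.117). Klk1b11 was lost without control library 2 (0.0824) or NOD 12 weeks libraries 1 (0.0611) or 3 (0.0583).

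Relatives of the members by gene name gave a mixed picture. Among cystatins, Cst3 had 42.7 and 28.7 FPKM and Cstb 72.8 and 58.1 FPKM in ESS libraries 1 and 2, against 27.5 to 50.9 FPKM and 44.8 to 79.6 FPKM in the other 10. Crisp3, at 88.8% identity to Crisp1 in transcript sequence, had 2.24 and 0.213 FPKM in ESS libraries 1 and 2 and 0 in the other 10, while Crisp2 had 0.280 and 0.755 FPKM, against 0.338 to 1.28 FPKM. Mucl1, a small mucin-like protein, followed the NOD groups and not the members, with 78.3 to 100.3 FPKM in NOD at 8 weeks, 56.3 to 85.8 FPKM in NOD at 12 weeks and at most 0.313 FPKM in any ESS or control library. No other amylase, BPI fold or chitinase gene is in the table used here, and Amy1 is 89.4% identical to its nearest pancreatic relatives over most of its length.

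Markers of other tissues were low in all libraries. Of 17 pancreatic acinar genes 2 had values, Pnlip and Clps, and they summed to 0.613 and 0.290 FPKM in ESS libraries 1 and 2, against 0.206 to 2.45 FPKM in the other 10. No gene of 9 gastric gland genes had a value. Ckm, the muscle creatine kinase and the one of 9 muscle genes with a value, had 1.18 and 0.964 FPKM in ESS libraries 1 and 2, against 0.174 to 2.02 FPKM elsewhere. The 4 of 7 adipocyte genes with values summed to 13.1 and 0.919 FPKM, against 1.47 to 22.4 FPKM elsewhere. Cd79a, a B cell receptor subunit and the one lymphocyte gene of 8 with a value, had at most 1.10 FPKM in any library. None of these lists set ESS libraries 1 and 2 apart from the rest as the members did, and whether RNA of other tissue had a part in the members' levels was not tested.

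**Figure D5:**
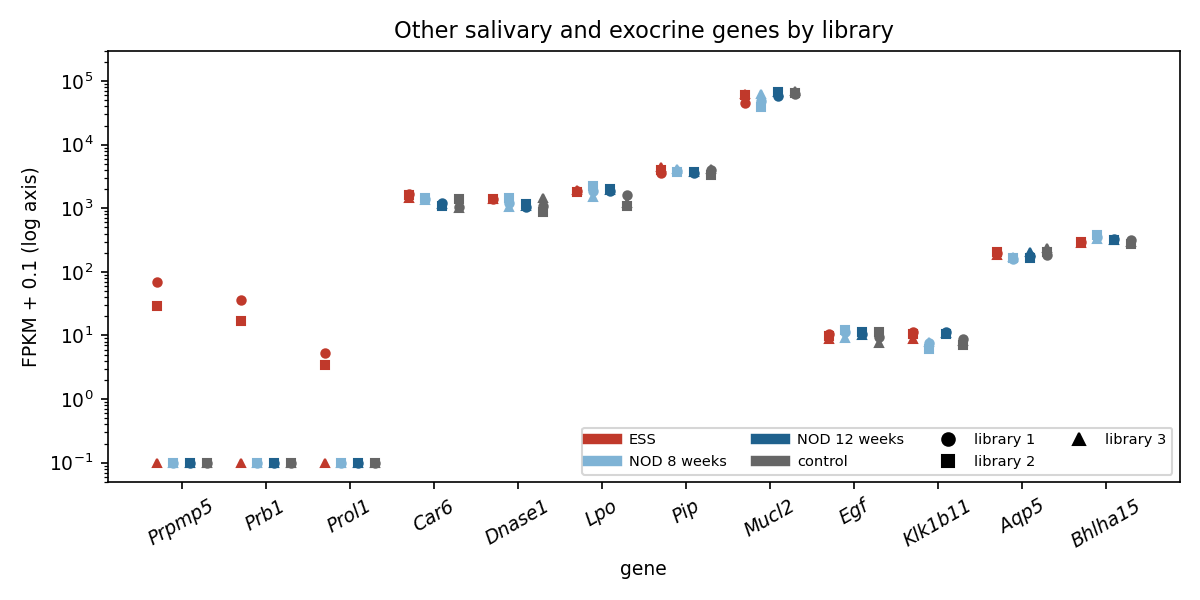
FPKM + 0.1 on a log axis of 12 salivary and exocrine genes outside the 10 members, with colour for the group, in the order ESS, NOD 8 weeks, NOD 12 weeks and control, and shape for the library number. Prb1, Prpmp5 and Prol1 are above 0 in ESS libraries 1 and 2 alone, while Lpo is abundant in all 12.

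The genes whose pattern was most like that of the members were ranked by Pearson r between log2(FPKM + 1) and the mean of the centred members over the 12 libraries, among 6180 genes with at least 5 FPKM in a library. All points share the same 12 libraries, and r is set largely by ESS libraries 1 and 2. Prol1, Prb1 and Prpmp5 each had r = 0.989, Gm8882 had 0.988 and Cldn22, a claudin of tight junctions, had 0.987. Cldn22 had 21.2 and 12.7 FPKM in ESS libraries 1 and 2, and Gm8882 had 25.7 and 11.9 FPKM there and 0 in the other 10. Gm8882 lies on chromosome 6 at 132361041 to 132364134, near Prb1 at 132206795 to 132210521 and Prpmp5 at 132311590 to 132314757. After these 5, r was 0.920 for Ggh, a lysosomal hydrolase of folates, and 0.815 for Pgp, the last of the 15 named.

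Genes further down this ranking were present in all libraries and higher in ESS libraries 1 and 2. Ggh had 215 and 108 FPKM there, against 11.4 to 27.0 FPKM in the other 10. Scgb1b27, a secretoglobin, had 120 and 50.5 FPKM there and 22.2 FPKM in ESS library 3. Kcnn4, a calcium-activated potassium channel of secretory cells, had 16.1 and 11.8 FPKM, against 2.50 to 8.31 FPKM in the other 10, and 2310057J18Rik had 946 and 362 FPKM, against 16.5 to 108 FPKM. The remaining named genes were Scgb2b27, Ccdc3, Gpnmb, Atp2a3 and Sil1.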

How the data were processed

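The authors deposited FPKM values for 11736 genes and 21202 transcripts, per the file headers, and the build was GRCm38, per the submitters' processing notes. The sources used here name neither the aligner nor the program behind the values. RNA was taken up in Trizol and made into stranded KAPA libraries, per the labels' protocols. Every listed gene has a group mean of at least 0.5 FPKM, as read from the values. No counts were available for use, so depth is known in relative terms alone.

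Groups came from the sample titles. Values were analysed as log2(FPKM + 1), so fold changes of low genes are understated. All genes that reached 1 FPKM in 3 or more libraries were fitted with limma 3.58.1 (R 4.3.3), with a mean per group, a trend and Benjamini-Hochberg adjustment over 10325 genes at 0.05. The fit was tested on simulated data. Replicate numbers did not pair the libraries (r of same-numbered deviations -0.101 to 0.196).

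Sequences are from RefSeq (GRCm38.p6) for all 10 members and GENCODE M21, compared with blastn 2.17.0 and Biopython 1.88. Tables and figures used Python 3.11.15, pandas 2.3.3 and matplotlib 3.10.9. The members and the lists were chosen with earlier results of these data known. The genes named are the members, the genes of the lists with values (up to 4 of each in full), relatives of the members by name, and the 15 most like the members by correlation. Alternatives were other pseudocounts, filters and scalings, transcript sums, the compared groups alone, a replicate block, and leaving out libraries.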

Additional observations from a re-analysis of the deposited data

How the results depend on the processing

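Genes called in NOD at 8 weeks against control numbered 2825 in the full fit and 1681 with a filter at 5 FPKM. They numbered 4804 after rescaling each library to its total without salivary genes. At 12 weeks they numbered 3444, 2168 and 5501 in the same order. The filter at 5 FPKM leaves fewer genes to test, so a lower count there does not by itself mean lost calls. At 12 against 8 weeks in NOD there were 13 calls, which became 8 with the filter at 5 FPKM, 23 after quantile normalization, 5 with transcript sums and 32 with the compared groups alone. In ESS against control 17 calls became 11 with a pseudocount of 0.1, 35 without a filter, 9 with the filter at 5 FPKM, 27 after quantile normalization, 34 after rescaling, 2 with transcript sums, 3 with the compared groups alone and 27 with a replicate block. With each replicate left out the counts were 2273 to 2769, 2402 to 3721, 6 to 20 and 1 to 75 in that order. The block changed no call of a member.

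Of Bpifa2, Crisp1 and Smr3a, 1 (Crisp1) was called at 12 weeks against control without ESS libraries 1 and 2. It was 0 to 1 with each replicate left out (Crisp1 without ESS replicate 3, limma adjusted p = 0.0424). In the other comparisons it was 0 to 0. Of the other salivary genes, 3 were called at 8 weeks after quantile normalization (Egf rose, Mucl2 and Pip fell), 3 with centred medians (Car6, Egf and Lpo rose), 2 after rescaling (Klk1b11 and Mucl2 fell) and 0 with the compared groups alone. At 12 weeks 4 were called after quantile normalization (Egf, Klk1b11 and Lpo rose, Pip fell) and 1 after rescaling (Pip fell). Leaving out a replicate gave 0 to 2 at 8 weeks, 1 to 2 at 12 weeks and 0 to 1 in ESS.

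At 8 weeks against control the direction of members turned in several settings. Amy1 and Chia1 were in the fit through ESS libraries, so their differences are a description with no test. The log2 difference of Amy1 became 0.0192 with centred medians, that of Bpifa2 -0.0393 with a pseudocount of 5 and -0.0378 after rescaling, and that of Chia1 0.0513 after quantile normalization and 0.116 with centred medians. With each replicate left out it ran from -0.34 to 0.20 for Amy1, -0.57 to 1.15 for Bpifa2, -0.24 to 0.20 for Chia1 and -0.29 to 1.77 for Smr3a. The cause was not tested. Traces of a few steps, as of Dcpp1, Cst10 and Klk1 outside ESS libraries 1 and 2, are too shallow for a direction.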

Other observations

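In both ESS library 1 and ESS library 2, 25 of the 11736 genes were more than 5 times the highest of the other 10 libraries, a rule chosen after the values were seen. They were the 10 members and Pax9, Crisp3, Gm8882, Cldn22, Dusp26, B4galnt3, Adora1, Ttr, Cldn24, Prol1, Prb1, Bglap, Esp8, Gm28434 and Prpmp5. Of these, Pax9 is a transcription factor of pharyngeal and oral tissues, Crisp3 is a relative of Crisp1 known from salivary gland, and Esp8 belongs to the exocrine gland-secreted peptides. Gm28434 overlaps Smr3a on the same strand. Pax9 had 2.43 and 0.902 FPKM and Esp8 4.34 and 2.17 FPKM in ESS libraries 1 and 2, with Pax9 at 0 in the other 10 and Esp8 at 0 in 9 of them.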
